A study of Macaca mulatta with 13 samples.

Results

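CTLA4, PDCD1, TIGIT, LAG3, BTLA, CD160 and CD244 encode 7 surface receptors that can restrain T cells, and their RNA is described here in white blood cells sorted from rhesus macaque colon. The 7 genes were taken by symbol, as a fixed list of receptors, from the 34628 genes of the deposited count matrix. Their identifiers there are ENSMMUG00000015903 for CTLA4, ENSMMUG00000063159 for PDCD1, ENSMMUG00000054667 for TIGIT, ENSMMUG00000056979 for LAG3, ENSMMUG00000014231 for BTLA, ENSMMUG00000007969 for CD160 and ENSMMUG00000017333 for CD244. Some samples come from animals given a donor transplant that developed GVHD, graft-versus-host disease, where T cells of the donor attack the recipient's tissues, and others from animals without a transplant. The labels name 13 samples: 4 host fractions, 2 donor fractions, 3 with host and donor cells together and 4 healthy controls. Cells were viable and CD45-positive, CD45 being a surface protein of leukocytes, and host and donor fractions had been parted by staining for MAMU-A001, a class I MHC protein. Sorted cells were also negative for the antibody label that the protocols call IVas. No source used here gives genotype, age or drug treatment, or says which library was made with version 2 and which with version 3 of the 10x Genomics 3′ kit.

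The number at the end of a barcode, 1 to 13, is taken as the library number. No source used here ties a number to a labelled sample, so no host, donor, GVHD or healthy group was formed, and libraries are described one by one. Values carry no replicate error and no test for that reason, and intervals (95%) cover counting error only. Library 4 was left out, because it shares 5323 barcodes with library 6 against at most 55 in any other pair, and all of its 39 cells kept by the authors are also among the 101 of library 6. Barcode sharing parts the libraries into a first set, 1 to 7, and a second set, 8 to 13, with at most 3 barcodes shared across the sets. The sets are read from the barcodes alone, and what parted them was not tested. A technical split cannot be told apart here from any difference between the samples in them.

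Many inhibitory receptors, though not all, are switched on when T cells are activated and can then limit signals from the T-cell receptor or from CD28. CTLA4 competes with CD28 for CD80 and CD86. PDCD1 (PD-1) binds CD274 and PDCD1LG2, TIGIT binds PVR and NECTIN2, and LAG3 binds MHC class II and FGL1. BTLA and CD160 share the ligand TNFRSF14 (HVEM), and CD244 binds CD48 and signals through SH2D1A. Several of them together are known from chronically stimulated T cells, while CTLA4 and TIGIT are also high in regulatory T cells, PDCD1 and BTLA in follicular helper cells, and CD160 and CD244 in natural killer (NK) and killer T cells.

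T cells were barcodes kept by the authors with at least 3 unique molecular identifiers (UMIs, each marking 1 captured RNA molecule) of CD3D, CD3E and CD3G together. They numbered 13104, or 63.7% of 20567 kept cells, with 13 to 2314 in a library and a median of 3294.5 UMIs each. The CD8A kind (3867 cells) had a UMI of CD8A and none of CD4, the CD4 kind (2048 cells) the reverse. Another 338 cells had both and 6851 had neither, since a UMI of these genes is often missed at this depth. Levels are CPM, counts per 1000000, the UMIs of a gene scaled to the UMIs of all genes in the pooled cells. In pooled cells, fewer cells with a receptor and less RNA per cell cannot be told apart. Each UMI is 1 molecule read at its 3′ end, so gene length does not scale it.

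TIGIT was the most abundant of the receptors and CD244 the least. Over the 11 libraries with at least 20 T cells, TIGIT had a lowest, median and highest level of 99.4, 217 and 605 CPM. CTLA4 ran from 22.9 in library 13 over a median of 84.4 to 312.5 CPM in library 2. LAG3 ran from 0 in library 6 over 57.7 to 352 CPM in library 2. TIGIT exceeded CTLA4 and LAG3 in 11 of 11 libraries, and CD160 in 9. CTLA4 exceeded LAG3 in 6 libraries and fell under it in 5, so these neighbours in the order did not part beyond the spread.

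The other 4 receptors were lower. CD160 had a lowest, median and highest level of 12.2, 49.6 and 284 CPM, and its order against LAG3 was split 6 to 5. PDCD1 had 0, 14.4 and 61.5 CPM, the top in library 3, and BTLA 6.44, 15.5 and 35.1 CPM. PDCD1 lay above BTLA in 7 libraries and under it in 4, again no firm order. With every cell thinned to 1500 UMIs, which weighs cells alike, the medians were 27.8 CPM for PDCD1 and 12.2 CPM for BTLA, 375 CPM for TIGIT and 135.5 CPM for CTLA4. CD244 had 1.17, 4.76 and 9.28 CPM and was under CTLA4, TIGIT and CD160 in every one of the 11. Library 6, which gave the lowest PDCD1, TIGIT and LAG3 and the highest BTLA, holds only 45 T cells.

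The share of all T cells with a UMI ran from 46.1% for TIGIT over 26.1% for CTLA4, 23.3% for LAG3, 12.8% for CD160, 8.81% for PDCD1 and 5.85% for BTLA to 2.47% for CD244. Epithelial-like cells served as a measure of free RNA, with a median of 3090 UMIs, near that of the T cells. Of 114 such cells, 2 had a UMI of PDCD1 and none had a UMI of the other 6 receptors, which allows a share of up to 2.63% for each of these. The shares of BTLA and above thus exceed that background limit, while that of CD244 does not. For PDCD1 the epithelial-like share was 1.75%.

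The clearest contrast lay between CD8A and CD4 cells. CTLA4 and PDCD1 were lower in the CD8A kind, and CD160 higher, in each of the 9 libraries that had at least 20 cells of both kinds. Of 7761 genes with a mean of at least 5 CPM, 1.28% were higher and 2.85% lower in the CD8A kind in all 9 libraries, and the median log2 ratio of all these genes was -0.05. Among the 7 receptors 1 was higher and 2 were lower in all 9. With CD8B in place of CD8A, CTLA4 and PDCD1 were lower in 8 of 8 libraries. The CD8B cells held only 0 to 2 UMIs of PDCD1 in libraries 1, 8, 9, 11 and 13. Of CTLA4 they held 2 UMIs in library 8 and 1 in library 13. CD160, however, was higher in only 6 of 8. Its log2 ratios were -0.69 in library 2 and -0.43 in library 5, on 1 and 3 UMIs in the CD8B cells. Log2 ratios add 1 CPM to both levels, which shrinks the differences of low genes.

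**Figure D1:**
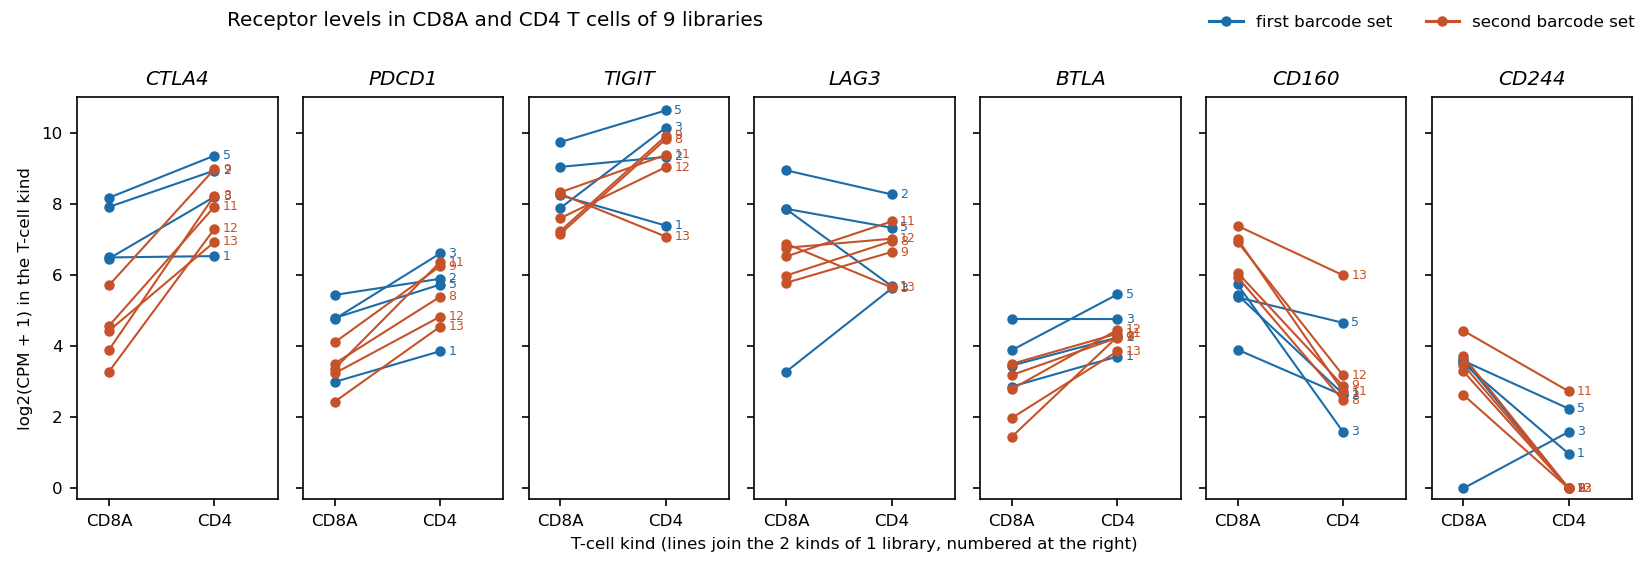
Level of each receptor as log2(CPM + 1) in the CD8A kind and in the CD4 kind of T cells, with a line joining the 2 kinds of each of 9 libraries (number at the right) and colour for the 2 sets of libraries that share barcodes. CTLA4 and PDCD1 lines rise to the CD4 kind and CD160 lines fall in all 9 libraries, whereas LAG3 lines cross; CTLA4 in library 1 is nearly level.

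CTLA4 was lower in the CD8A kind throughout. In the CD8A kind its lowest, median and highest levels over 10 libraries were 8.75, 40.5 and 288.5 CPM, and in the CD4 kind, over 9 libraries, 91.8, 294 and 657 CPM. The median log2 ratio of CD8A to CD4 was -2.50, from -4.34 in library 8 to -0.04 in library 1. Library 1 stands apart with 89.4 CPM in the CD8A and 91.8 CPM in the CD4 kind, a near tie. CTLA4 took the second place behind TIGIT in the CD4 kind in all 9 libraries.

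The gap of CTLA4 differed between the sets of libraries. Its log2 ratios ran from -1.74 to -0.04 in libraries 1, 2, 3 and 5 and from -4.34 to -2.50 in libraries 8, 9, 11, 12 and 13. The CD8A kind held 87.4 to 288.5 CPM in the first set and 8.75 to 51.4 CPM in the second. CD160 in the CD8A kind showed the reverse, with 13.97 to 52.4 CPM in the first and 60.8 to 215 CPM in the second set. These 2 receptors, of 7, had levels that did not overlap between the sets, where 17% of 7643 measured genes did so in CD8A cells. In the CD4 kind 0 of 6 measured receptors parted in this way, against 19.8% of genes, and in all T cells 0 of 6, against 12.6%. Whether the sets differ by kit, sort or animals was not tested.

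PDCD1 followed CTLA4 at lower levels. Its lowest, median and highest levels were 4.42, 9.87 and 42.5 CPM in the CD8A kind and 13.5, 52.3 and 96.7 CPM in the CD4 kind. The log2 ratio had a median of -1.84 and ran from -3.00 in library 11 to -0.46 in library 2. Library 3 rests on 3 UMIs in the CD8A kind against 48, a ratio of 0.271 with a 95% counting interval of 0.0540 to 0.841. The median was -0.90 in the first set of libraries alone.

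TIGIT, which competes with CD226 for ligand, was abundant in both kinds and mostly higher in the CD4 kind. Its lowest, median and highest levels were 142 (library 8), 269 and 856 CPM in the CD8A kind and 135 (library 13), 666 and 1588 CPM in the CD4 kind. It was lower in the CD8A kind in 7 libraries and higher in 2, with log2 ratios of 0.85 in library 1 and 1.20 in library 13. It was the top receptor of the CD4 kind in all 9 libraries.

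LAG3 had no common direction. Its levels were 8.74, 106 and 493 CPM at the lowest, median and highest in the CD8A kind and 48.3, 123 and 308 CPM in the CD4 kind. It was higher in the CD8A kind in libraries 1, 2, 5 and 13 and lower in libraries 3, 8, 9, 11 and 12, with log2 ratios from -2.34 to 2.17 and a median of -0.26. The sign of the median turned when library 3, 8, 9 or 11 was left out (0.14 each) and when every cell was thinned to 1500 UMIs (0.59). LAG3 and CD4, which was used to form the kinds, are neighbours in the RefSeq annotation of assembly T2T-MMU8v2.0, and whether their reads mix was not tested.

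BTLA was lower in the CD8A kind in 8 of 9 libraries, with a median log2 ratio of -1.05, and library 3 was level at 26.2 CPM in both kinds, on 3 and 13 UMIs. Its levels were low, with medians of 9.05 CPM in the CD8A and 18.2 CPM in the CD4 kind. The 9 libraries hold between 1 and 42 UMIs of BTLA in a kind, so single libraries are loosely set: library 8 has 1 UMI against 4, a ratio of 0.0952 with an interval of 0.00193 to 0.962.

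CD160 stood opposite to CTLA4. In the CD8A kind its lowest, median and highest levels were 13.97, 63.5 and 215 CPM, and in the CD4 kind 2.01, 5.65 and 62.8 CPM. The log2 ratio had a median of 3.19 and ran from 0.72 in library 5 to 4.28 in library 11. Libraries 5 and 13, which gave 2 of the 3 smallest ratios, had the highest CD160 in the CD4 kind, 24.3 and 62.8 CPM. Among T cells with no UMI of MS4A1, CD79A, MZB1, JCHAIN, LYZ or EPCAM, all markers of other cells, CD160 was at 0 UMIs in the CD4 kind of both libraries and the median log2 ratio was 4.79 over 8 libraries.

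CD244 was scarce, with 178 UMIs in 3867 CD8A cells and 14 UMIs in 2048 CD4 cells, or 10.8 against 1.56 CPM. The median log2 ratio was 2.63, a value that depends on the 1 CPM added. The CD4 kind had none in libraries 2, 8, 9, 12 and 13. Against a floor of 3 UMIs in the CD4 kind of the library, CD244 was at least 8.89-fold higher in the CD8A kind in library 2, at least 3.18-fold in library 9 and at least 2.10-fold in library 12, while libraries 8 and 13 set no bound above 1. Where the CD4 kind had 2 UMIs, the ratio was 10.8 (2.52 to 97.7) in library 1 and 2.96 (0.660 to 27.3) in library 5. Library 11 had the most UMIs in the CD4 kind, 9 against 20, and a log2 ratio of 1.71. Library 3 alone had fewer in the CD8A kind, 0 UMIs in 35 cells against 1 UMI in 120.

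Other cells can add RNA to a T-cell barcode, and plasma-cell genes were found at unequal levels among the kinds. Summed over MZB1, DERL3, TNFRSF17, JCHAIN and XBP1 they reached 9132 CPM in the CD8A kind, 5698 CPM in the CD4 kind and 28311 CPM in the T cells with neither CD8A nor CD4, and ran over libraries from 426 to 26090 CPM, 76.5 to 13029 CPM and 1010 to 160431 CPM in the same order. None of the 5 was at 0 in any kind. The 9 myeloid markers summed to 774 CPM in the CD8A and 2493 CPM in the CD4 kind, with 1 of 9 at 0 in each, but their library medians were both 8.13 CPM and their maxima 1764 and 7416 CPM, and 5 B-cell markers to 79.4 and 151 CPM. NK markers, 8 in number with none at 0, summed to 364 CPM in the CD8A and 119 CPM in the CD4 kind. CTLA4 and CD160, whose levels did not overlap between the sets in the CD8A kind, were also read in part of these cells. In CD8A cells with no UMI of the 6 markers of other cells named above, 9 libraries were used. CTLA4 had 92.6 to 412 CPM in the first set and 9.33 to 54.8 CPM in the second. CD160 had 14.5 to 43.6 CPM in the first and 65.2 to 146 CPM in the second. The share of all genes without overlap, 17% in the whole CD8A kind, was not computed for these filtered cells. Any other part of RNA from other cells in the results was not tested.

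Of the 7 receptors, CD160 had the highest level in plasma-like cells. These 1356 cells outside the T gate, named by at least 3 plasma markers, no CD3 UMI and fewer than 3 markers of any other type, had 140 CPM of CD160, and 53.6% of them had a UMI at a median depth of 10235.5 UMIs. Thinned to 1500 UMIs, 17.3% had one, against 0.434% of 2073 B-like and 10.2% of CD8A cells thinned alike. The level by library ran from 3.89 CPM in library 3 to 303 CPM in library 10 and 233 CPM in library 13.

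T cells with a UMI of JCHAIN, the joining chain of secreted antibodies, had CD160 at 58.4 CPM against 59.0 CPM in the plasma-like cells of library 8, at 306 against 303 CPM in library 10 and at 188 against 233 CPM in library 13. The gap was wider in library 2 (23.6 against 42.0 CPM) and library 3 (11.2 against 3.89 CPM). In library 10 the T cells with JCHAIN had 306 CPM of CD160 and those without had 105 CPM. In library 13 T cells without it had 98.5 CPM, and in library 5 the values were 72.1 with and 11.5 CPM without. In library 12 they were 94.5 and 108 CPM, and in library 9 T cells with JCHAIN had the lower level, 3.58 against 22.4 CPM. T cells without JCHAIN ran from 8.96 CPM in library 2 to 108 CPM in library 12, leaving aside library 6, which had 0 UMIs in 29 such cells. The part of plasma-cell RNA in the differences between libraries was not tested.

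**Figure D2:**
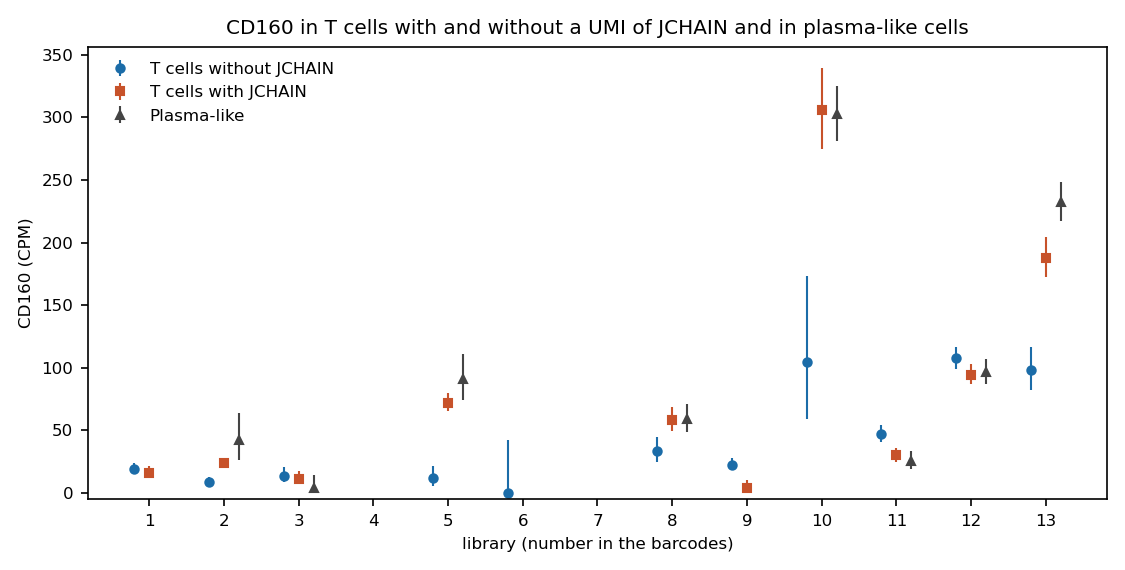
CD160 in CPM by library in T cells without a UMI of JCHAIN, in T cells with one and in plasma-like cells, where each group has at least 20 cells; bars are 95% Poisson intervals for counting error. In libraries 10 and 13 the T cells with JCHAIN (306 and 188 CPM) and the plasma-like cells (303 and 233 CPM) both lie above the T cells without it (105 and 98.5 CPM).

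Outside T cells the receptors fell into few places. The 89 NK or innate lymphoid-like cells had 293 CPM of TIGIT, 231 CPM of CD160 and 19.5 CPM of CD244, with no UMI of CTLA4 or BTLA. B-like cells had 29.1 CPM of TIGIT, 11.6 CPM of BTLA and 9.83 CPM of PDCD1. Plasma-like cells had BTLA at 18.1 CPM, above the 14.8 CPM of all T cells, and TIGIT at 16.9 CPM. CTLA4 and LAG3 were near 0 in both, at 2.72 and 1.04 CPM in B-like and 0.497 and 1.80 CPM in plasma-like cells. In the 148 myeloid-like cells LAG3 had 11 UMIs, 7.47 CPM, and no other receptor had more than 3.

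Within CD8A cells, CD160 was low in cells with GZMK and high in those with ITGAE. GZMK encodes granzyme K and ITGAE the CD103 integrin chain of cells lodged in epithelium. The 720 CD8A cells with GZMK had 427 CPM of LAG3, 589.5 CPM of TIGIT, 223 CPM of CTLA4 and 38.8 CPM of PDCD1, but 22.7 CPM of CD160. CD160 was under the other CD8A cells in 6 of 6 libraries with enough cells, with a median log2 difference of -1.31. LAG3, CTLA4, TIGIT and PDCD1 were above in 4 of 6 libraries each, so their pooled excess did not hold in every library. Here and in the finer kinds below, the share of all genes that went one way in every library was not computed.

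The 1377 CD8A cells with ITGAE and no GZMK had 119.5 CPM of CD160 and 50.2 CPM of CTLA4. CD160 exceeded the other CD8A cells in 7 of 8 libraries. CTLA4 and LAG3 exceeded them in 3 of 8, PDCD1 in 4 and TIGIT in 5. CD8A cells with GZMB and neither of the others had 102 CPM of CD160, higher in 5 of 8 libraries.

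CTLA4 and TIGIT were higher in CD4 cells with TNFRSF4 or with helper cytokines. The 549 CD4 cells with TNFRSF4 (OX40), a costimulatory receptor of activated and regulatory cells, had 473 CPM of CTLA4 and 806 CPM of TIGIT, both above the other CD4 cells in 5 of 5 libraries. They had no UMI of CD244, which allows a share of up to 0.546%. Their median depth was 4016 UMIs, against 3203 UMIs in the CD4 cells without TNFRSF4. FOXP3, the factor of regulatory T cells, was at 2.48 CPM in the CD4 kind. Its mean over libraries, with both kinds pooled, was 1.23 CPM, under the 5 CPM needed to count as measured.

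The 493 CD4 cells with CCL20 or IL21, helper cytokines of the gut and follicle, had 879 CPM of TIGIT, 416 CPM of CTLA4, 257 CPM of LAG3 and 79.4 CPM of PDCD1. TIGIT was above the other CD4 cells in 8 of 8 libraries, CTLA4 and LAG3 in 7 and PDCD1 in 6. CD4 cells with GZMB had 266 CPM of LAG3 against 88.8 CPM in those without, higher in 5 of 7 libraries. BTLA was lower in them in 7 of 7 libraries, at 12.4 against 22.8 CPM when pooled. The cells with GZMB held only 44 UMIs of BTLA over all libraries. Log2 differences ran from -5.03 to -0.59, so single libraries are loosely set.

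Other gates cut across the kinds. T cells with CCR7, the lymph node homing receptor, had 20.3 CPM of CD160, under the other T cells in 10 of 10 libraries. The 259 T cells with KIR2DL4, an NK receptor, had 521 CPM of TIGIT and 16.1 CPM of CD244, both above the other T cells in 6 of 6 libraries, the smallest CD244 excess being 0.00 on the log2 scale. Dividing T cells had no receptor that moved one way in all 7 libraries.

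**Figure D3:**
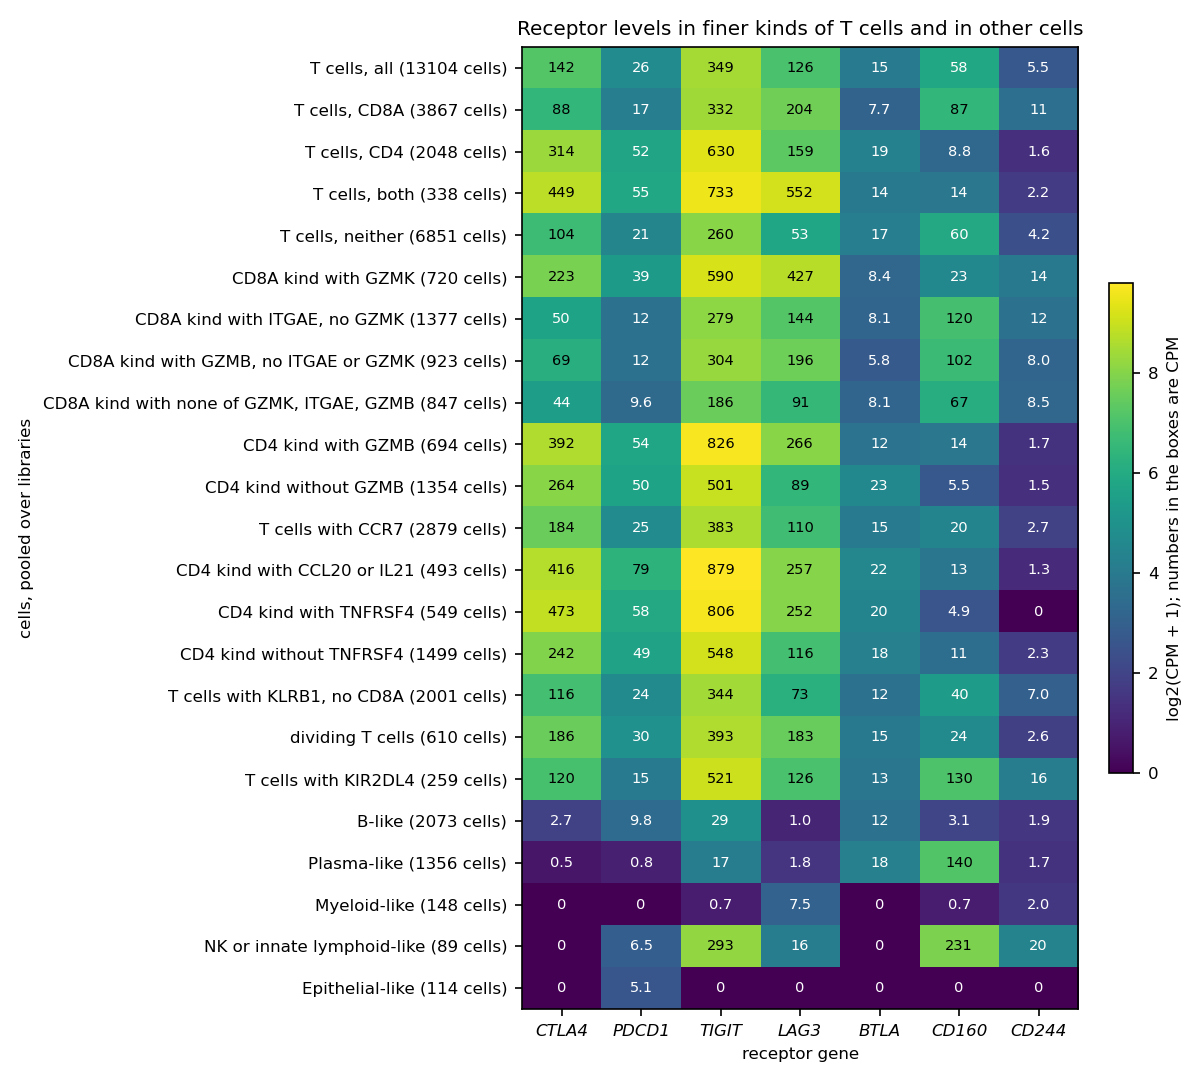
Level of each receptor pooled over libraries in T cells, in finer kinds of T cells and in other cells; colour is log2(CPM + 1) and the number in each box is CPM. CD160 is at 119.5 CPM in CD8A cells with ITGAE and 22.7 CPM in those with GZMK, and at 140 CPM in plasma-like cells, while CTLA4 is highest in CD4 cells with TNFRSF4, at 473 CPM.

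The 338 cells with UMIs of both CD8A and CD4 had the highest LAG3, 552 CPM, and CTLA4 at 449 CPM. They are deeper, with a median of 5209 UMIs, and 176 of them come from library 2. There they had 984 CPM of LAG3 against 493 CPM in the CD8A and 308 CPM in the CD4 kind. In library 1 the 80 such cells had 131 CPM, between the 231 and 50.7 CPM of the other kinds. Whether some of these barcodes hold 2 cells was not tested.

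CTLA4, PDCD1, TIGIT and LAG3 shared cells more often than independent detection gives. With all kinds pooled, CTLA4 did so less often with CD160 and with CD244. Cells were thinned to 1500 UMIs to give all the same depth, and the number of T cells with both genes was set against the number expected if detection were independent inside each library and kind. Of the 21 pairs, 19 had at least 5 expected cells. The ratio was above 1 in 12 pairs, near the 58.6% of all gene pairs, taken over the 7114 genes with a UMI in at least 1% of cells. It was below 1 in 7. Of the 19 pairs, 10 had a counting interval above 1, against 3.35% of gene pairs, and 3 had one below 1, against 1.21%. The interval narrows with the number of cells expected, which was not matched between receptor pairs and gene pairs. No p-value is given, because the cells of 1 library are not replicates.

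Among the first 4, all pairs had intervals above 1. CTLA4 and PDCD1 shared 250 of 13027 cells where 135 were expected, a ratio of 1.85 (1.63 to 2.09). The ratio was 1.76 for PDCD1 with TIGIT, 1.62 for PDCD1 with LAG3, 1.55 for CTLA4 with LAG3, 1.52 for CTLA4 with TIGIT and 1.387 for TIGIT with LAG3. CTLA4 with TIGIT was above 1 in 9 of 9 libraries, CTLA4 with LAG3 in 8 of 8 and CTLA4 with PDCD1 in 6 of 6, whereas TIGIT with LAG3 was above 1 in 8 of 10 and PDCD1 with TIGIT in 6 of 8. All 6 of these ratios were above 1 in the CD4 kind (1.301 to 1.88), each with its interval. In the CD8A kind they ran from 1.13 to 1.499, but the intervals of CTLA4 with PDCD1 (0.95 to 2.25) and PDCD1 with LAG3 (0.95 to 1.84) include 1, and TIGIT with LAG3 was above 1 in only 3 of 6 libraries.

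CD160 kept other company when all kinds were pooled. It shared 18 cells with CTLA4 where 52.1 were expected, a ratio of 0.35 (0.20 to 0.55) that was below 1 in 5 of 5 libraries, and its ratio with PDCD1 was 0.51 (0.23 to 0.97). The PDCD1 pair had no single direction, at 1.17 (0.47 to 2.42) in the CD8A kind, 0.098 on 1 cell in the cells with neither CD8A nor CD4, and 0.59 (0.19 to 1.37) among T cells with no UMI of other cells' markers. CD160 with CD244 was at 1.97 (1.13 to 3.20) on 16 cells, and with TIGIT 1.28 (1.13 to 1.46), above 1 in 6 of 10 libraries. The CTLA4 pair was also low among T cells with no UMI of other cells' markers, at 0.40 (0.19 to 0.74). CTLA4 with CD244 had 0.40 (0.16 to 0.83) on 7 cells, and only 1 library had enough expected cells for a ratio. In the cells with neither CD8A nor CD4 that pair was at 0.52 (0.17 to 1.23), and the CD8A and CD4 kinds had fewer than 5 expected cells. In the CD8A kind alone CTLA4 with CD160 was at 0.53 (0.21 to 1.09), with 7 cells. In the CD4 kind it was at 0.67 (0.18 to 1.72), so both intervals include 1. In the cells with neither it was at 0.19 (0.069 to 0.41), on 6 cells where 32.1 were expected. CD8 and CD4 T cells among the cells with neither were not parted, and the part of that mixing in the ratios of receptor pairs was not tested. BTLA had a ratio of 1.30 (1.01 to 1.65) with CTLA4 and of 1.504 with PDCD1, the latter with an interval of 0.94 to 2.28 that includes 1.

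**Figure D4:**
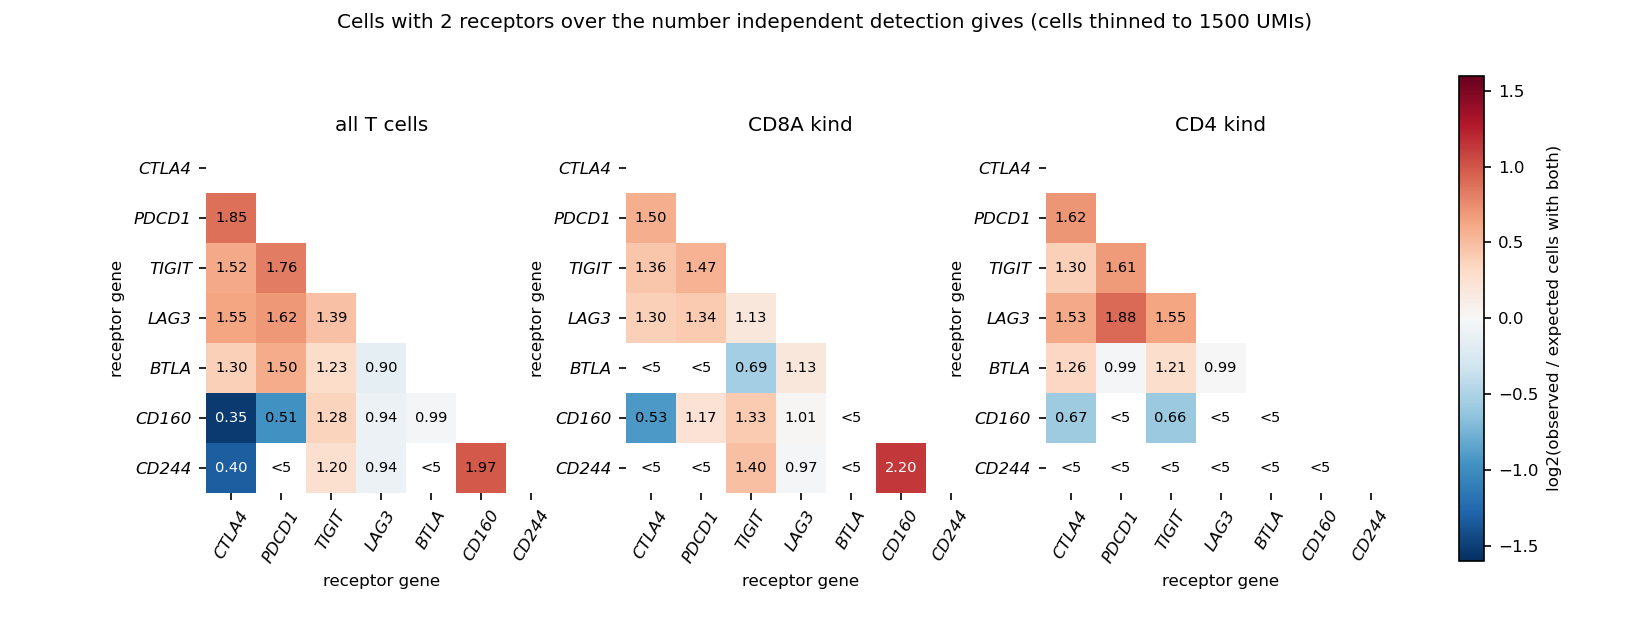
Number of T cells with UMIs of both receptors over the number expected from independent detection inside each library and kind, for all T cells, the CD8A kind and the CD4 kind; red is above 1, blue below 1, and pairs with fewer than 5 expected cells are marked <5. CTLA4 with PDCD1 stands at 1.85 and CTLA4 with CD160 at 0.35 in all T cells.

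Cells with several receptors were in excess at the high end. At this depth 18.5% of T cells had 2 or more receptors, against 15.9% expected, a ratio of 1.17. Cells with 3 or more made up 4.96% against 2.48% expected, a ratio of 2.002, which was 1.54 in the CD8A kind, 1.94 in the CD4 kind and 2.85 in the cells with neither. For 2 or more it was 1.09, 1.077 and 1.32 in the same order. In the cells with both CD8A and CD4 the ratio was 0.99 for 2 or more and 1.37 for 3 or more. Other sets of genes were not counted in this way. The part of mixed CD8 and CD4 T cells among the cells with neither was not tested. No cell had more than 5. The share with 3 or more ran from 0% in library 6 and 1.0% in library 13 to 9.62% in library 2 and 10.7% in library 5.

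Genes whose detection was most alike were sought among 7114 genes with a UMI in at least 1% of thinned T cells, by the phi coefficient, a correlation of presence and absence, over 13027 cells. FABP5, a fatty acid carrier, led for PDCD1 (0.14) and TIGIT (0.21) and was also close to CTLA4 (0.18), behind TIGIT (0.20) and the proteoglycan gene SPOCK2 (0.18). LAG3 was most like the gene ENSMMUG00000039070, which has no symbol in the tables used here (0.21), then GZMB (0.18) and GZMA (0.17), both granzymes. CD160 was most like the chemokine genes XCL1 (0.16) and CCL5 (0.15), and CD244 like CCL5 (0.08) and GNLY (0.07), granulysin. BTLA had only weak partners, with APOD at 0.06. FABP5 has close copies in primate genomes, so its counts are uncertain.

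The genes of the receptors' own pathways were read from fixed lists, by the same count over 9 libraries. Among 10 ligands, 6 were measured and 0 were higher or lower in the CD8A kind in all libraries, with a list median of -0.30. CD48, the CD244 ligand, had 191 CPM in the CD8A and 127 CPM in the CD4 kind, higher in 6 of 9 libraries. TNFRSF14 had 53.0 and 70.6 CPM. Of the 5 rival or partner receptors, CD96, which shares ligands with TIGIT, was higher in all 9 (90.3 against 36.7 CPM) and ICOS, a relative of CTLA4 and CD28, lower in all 9 (129 against 305 CPM).

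Follicular helper genes were lower and several killing genes higher in the CD8A kind. All 4 measured of the 5 follicular helper genes, CXCR5, BCL6, IL21 and CD40LG, were lower in the CD8A kind in 9 libraries, with a list median of -1.92. IL21 had 4.45 against 69.9 CPM. Of the 7 killing genes, GZMA, GZMB, GNLY and NKG7 were higher in all 9, with a list median of 2.43. Of 13 measured factors, BATF and MAF were lower in all 9 and none was higher, and of 7 activation genes TNFRSF4 and TNFRSF18 were lower. None of 8 measured signalling genes moved one way in all libraries, nor did the 3 measured of 7 other inhibitory receptors, LAIR1, VSIR and SIT1. HAVCR2 (TIM-3) was not measured, at 1.42 and 0.45 CPM.

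With all kinds pooled, PDCD1 had its highest ratios of shared to expected cells, among the partner genes read, with TOX2, IL21, MAF and SH2D1A. It shared cells with TOX2, a factor of follicular helper and chronically stimulated cells, 3.50 times as often as independence gives (2.54 to 4.70). The ratio was 2.85 with IL21, 2.53 with MAF and 2.31 with SH2D1A, the adaptor of CD244-family receptors. The follicular helper genes CD40LG (1.65), CXCR5 (1.52) and BCL6 (1.51, 0.93 to 2.30) lay below IKZF2 (1.94), NFATC1 (1.85) and TOX (1.83). The killing genes PRF1 (1.47), GZMA (1.42), GZMK (1.35) and GZMB (1.25) were above 1 with PDCD1 too, at ratios below all of these. GZMM (1.01, 0.74 to 1.34), GNLY (0.98, 0.84 to 1.14) and NKG7 (0.90, 0.76 to 1.05) had intervals that include 1. CTLA4 was found with TOX2 at 2.11, IL21 at 1.95, TNFRSF18 at 1.65 and ICOS at 1.501. TIGIT was found with TOX2 at 2.11, IKZF2 at 1.77 and TNFRSF18 at 1.64. Of the 13027 cells, 6838 had neither CD8A nor CD4, and CD8 and CD4 T cells among them were not parted. The part of that mixing in the ratios with partner genes, here and below, was not tested.

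LAG3, CD160 and CD244 were each found with some killing genes more often than independence gives. LAG3 was found with PRF1, perforin, at 1.68 with GZMA at 1.47 and with GZMK at 1.304. CD160 was found with XCL1 at 2.995 (2.48 to 3.59) and CRTAM at 1.76, and above 1, with the interval, for 5 of 7 killing genes, GZMA (1.24), GZMB (1.12), GZMM (1.34), GNLY (1.295) and NKG7 (1.21). With all kinds pooled, it was seldom found with GZMK (0.58), CCR7 (0.44), CD28 (0.40) or MAF (0.11, on 1 cell). Its ratio with PRF1 was 0.77 (0.53 to 1.09). CD244 was found with CRTAM at 2.25, CD96 at 2.15, PRF1 at 2.06 and GZMK at 1.92, so the GZMK ratios of CD244 and CD160 lay on opposite sides of 1, with intervals that did not meet. BTLA was seldom found with GZMB (0.50) or GZMK (0.32) and more often with IL21 (2.14).

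**Figure D5:**
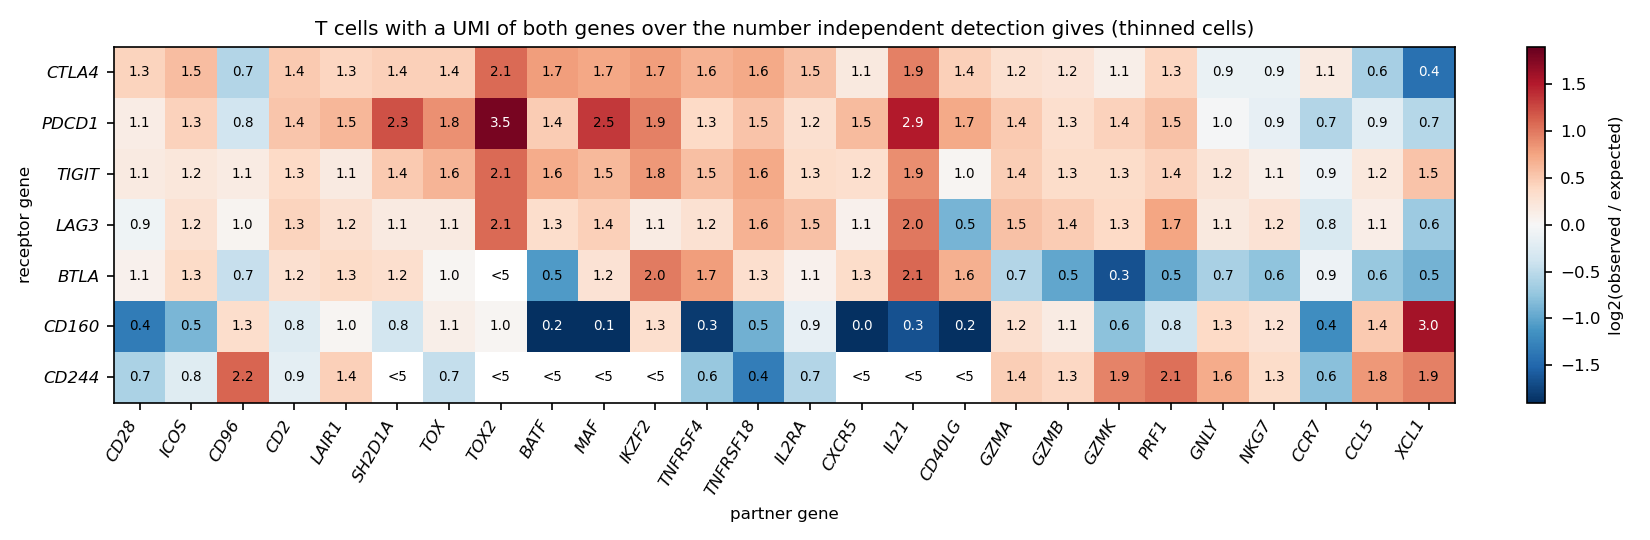
Number of T cells with UMIs of a receptor (row) and a partner gene (column) over the number expected from independent detection inside each library and kind, for 26 genes chosen from the lists after their values were seen; red is above 1, blue below 1, <5 marks fewer than 5 expected cells. PDCD1 with TOX2 stands at 3.50 and CD160 with XCL1 at 2.995, and CD160 lies below 1 with CD28, ICOS, BATF, MAF and CD40LG.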

How the data were processed

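The authors deposited raw UMI counts per gene and barcode. Cell Ranger 3.1.0 made the matrix, per the file headers. The submitters' processing notes name Seurat 3.1 without a role, and no source used here names the build. Barcodes kept by the authors were read from their list; their corrected values were not used. Libraries hold 3128386 to 19655788 UMIs and every kept cell at least 1502 UMIs.

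T cells, kinds and other cells were gated as stated. No doublet caller was run; T cells without UMIs of other cells' markers served as the alternative. Counts were pooled per library and kind to CPM. A gene was measured at a mean of at least 5 CPM, ratios used a pseudocount of 1 CPM, and cells were thinned without replacement (seed 1). Counting intervals are exact Poisson and exact binomial at 95%, and the limit beside a share of 0 is 3 counts of the total. Named genes were the 7 receptors, fixed lists of partners with counts, and the 3 genes of highest phi per receptor; partners named outside those lists (CCR7, IL7R, CRTAM, XCL1) were chosen after their values were seen, as were the split by JCHAIN and the comparison of library sets inside kinds. Members and lists were chosen with earlier results of these data known. The planned test between label groups was not run, because no source used here ties barcode numbers to labels. Ratio and co-detection steps were tested on simulated data. Python 3.11.15, numpy 2.4.6, scipy 1.17.1, pandas 2.3.3 and matplotlib 3.10.9 were used.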

Additional observations from a re-analysis of the deposited data

Results flagged for a closer look

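The log2 ratio of CD244 in CD8A to CD4 T cells was -1.59 in library 3, far below the other 8 libraries (1.35 to 3.72). It rests on 0 UMIs in 35 CD8A cells against 1 UMI in 120 CD4 cells, so both levels are at or under the floor of 3 UMIs and give no fold. Chance flags about 1 in 20 such groups.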

How the results depend on the processing

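The count of receptors higher in the CD8A kind in every library was 1. It was 2 with all barcodes of at least 1000 UMIs, in the second set of libraries, without UMIs of markers of other cells and with at least 100 cells of both kinds, and 0 with CD8B in place of CD8A, CD160 being the one lost. Leaving out 1 library gave 1 to 2, the 2 being without library 3. The count of receptors lower in every library and the 12 pairs stayed within 1.5 times in all alternatives run. The cause of these changes was not tested. The LAG3 median log2 ratio (-0.26) turned to 0.60 in the first set, 0.19 with CD8B, 0.59 with thinned cells and 0.14 with at least 100 cells of both kinds, and ran from -0.56 to 0.14 with 1 library left out. The CD244 median log2 ratio, 2.63, was 0.91 with a pseudocount of 10 CPM. The ratio of cells with 2 or more receptors (1.17) was 1.01 without thinning and 1.13 with another seed for thinning. Of 290 values recomputed, 273 kept their direction and, with 1 SD between libraries or 1.5 times for counts as the limit, were not counted as moved, though that limit is wide where libraries differ. Leaving out dividing T cells, or cells with both CD8A and CD4, was chosen after seeing the data. Levels under about 3 UMIs in a library are set by depth, which limits CD244, BTLA and PDCD1 most.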

Other observations

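HLA-DRA is a class II gene of antigen-presenting and B cells that human T cells also switch on. It was found in cells with LAG3, CTLA4, PDCD1 and TIGIT less often than independent detection gives. The ratio was 0.42 (0.31 to 0.56) with LAG3, 0.48 with CTLA4, 0.56 with PDCD1 and 0.69 with TIGIT. With BTLA (0.73, 0.48 to 1.06), CD160 (0.825, 0.56 to 1.17) and CD244 (0.74, 0.30 to 1.53) the intervals include 1. HLA-DRA had 78.3 CPM in the CD8A and 265 CPM in the CD4 kind when pooled, but a median log2 ratio over libraries of -0.04, from -3.24 to 2.03, and was higher in the CD8A kind in 4 of 9. Its part from B-cell or myeloid RNA in T-cell barcodes was not tested. IL7R, the receptor of a survival cytokine, was likewise found less often with PDCD1 (0.57), CTLA4 (0.76) and TIGIT (0.81). The same held for BTLA (0.75), CD160 (0.82) and LAG3 (0.86). With CD244 the ratio was 0.87 (0.65 to 1.13), an interval that includes 1.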
